A study of Oryza sativa with 36 samples.

Results

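Silicon, manganese and zinc transporter genes of rice were followed across the organs and genotypes of a study of FTO, an animal RNA demethylase introduced into rice. The 7 genes were taken by identifier, out of 55801 genes in each count table, and all 7 are present there. They are the silicon transporter genes Lsi1 (LOC_Os02g51110), Lsi2 (LOC_Os03g01700) and Lsi6 (LOC_Os06g12310), the manganese transporter genes OsNRAMP5 (LOC_Os07g15370) and OsNRAMP1 (LOC_Os07g15460), and the zinc and cadmium pump genes OsHMA2 (LOC_Os06g48720) and OsHMA3 (LOC_Os07g12900). A reference gene table of another assembly holds 6 of the 7 names on the same chromosome. Their order was compared with other named genes of that chromosome, and a partial match was enough to pass. The name OsHMA3 rests on the published rice nomenclature. All plants were of the cultivar Nipponbare, grown in Kimura B solution, a hydroponic medium, in days of 12 h light at 26 °C with nights at 22 °C, and were harvested as seedlings of 15 days. The groups were the root and the shoot of wild type (WT), of plants homogeneous for the FTO transgene (FTO) and of plants homogeneous for a mutant FTO transgene (FTOmut). The labels name neither the promoter of the transgenes nor the number of lines, and the transgenes' own transcripts were not analysed here. Each of the 6 groups had 2 RNA-seq libraries, depleted of ribosomal RNA per the protocol, and 2 lists of m6A peaks (stretches of transcripts enriched by an antibody to N6-methyladenosine), each from another pair of libraries made from poly(A) RNA.

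Rice accumulates much silicon and manganese. Silicic acid enters root cells through the channel Lsi1 and leaves them towards the stele through the efflux transporter Lsi2, and the channel Lsi6 unloads it from the xylem in leaves. OsNRAMP5 is the main manganese uptake transporter of the root and also admits cadmium, OsNRAMP1 carries iron, manganese and cadmium, OsHMA2 loads zinc and cadmium for transport to the shoot, and OsHMA3 moves cadmium and zinc into root vacuoles.

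Counts assigned to genes ranged from 12970274 to 17875977 per RNA-seq library. In the FTO shoots, 2 loci of chromosome 9 held 64.8% and 63.6% of these counts, leaving fewer for other genes. They held 21.0% and 34.4% in the WT shoots, 14.3% and 18.55% in the FTOmut shoots, and 1.22% to 23.2% in root. Organ labels were checked on summed levels of 5 green-tissue and 5 root marker genes, in CPM (counts relative to library size) scaled over all 12 libraries. The green sum was 2231 to 11069 in shoot and 48.6 to 541.9 in root with no marker at 0, and the root sum was 191.8 to 551.7 in root and 3.27 to 17.6 in shoot, where up to 2 of the 5 were at 0. The WT shoot libraries stood apart: their Spearman correlation across genes was 0.838, while WT shoot replicate 1 reached 0.963 with each FTO shoot library and WT shoot replicate 2 reached 0.914 with FTOmut shoot replicate 1. Genes reaching 10 counts numbered 46166 in root and 36486 in shoot in FTOmut replicate 2, and 18065 to 30053 in the other libraries. The labels do not say that replicates came from separate cultures, so the p-values reflect only how far these libraries spread, which may be technical.

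In WT root, levels per kb of transcript (CPM divided by the deposited length) were highest for Lsi1 at 117.6 ± 41.1 CPM per kb, Lsi2 at 96.6 ± 8.13 and OsNRAMP1 at 90.6 ± 17.1 (SD, n = 2). The libraries of these 3 genes overlapped, so their order is not resolved. Lsi6 followed at 41.3 ± 0.908, OsNRAMP5 at 34.6 ± 2.64 and OsHMA2 at 33.1 ± 17.0 CPM per kb, and the libraries of OsHMA2 overlapped those of both others. OsHMA3 was lowest at 9.75 ± 0.930 CPM per kb and did not overlap the rest. In FTO root the order began with OsHMA2 at 74.3 ± 0.224, Lsi2 at 37.5 ± 1.69, Lsi1 at 32.7 ± 1.55, Lsi6 at 21.6 ± 0.929 and OsNRAMP5 at 8.58 ± 0.799 CPM per kb, which did not overlap. It ended with OsNRAMP1 at 5.80 ± 0.125 and OsHMA3 at 5.68 ± 0.0799, whose libraries overlapped. In FTOmut root it began with Lsi1 at 131.9 ± 71.1 and Lsi2 at 99.4 ± 42.1, which overlapped. OsNRAMP5 at 21.4 ± 8.16, OsHMA2 at 12.5 ± 7.23 and Lsi6 at 9.26 ± 2.81 followed, each overlapping the next, and OsHMA3 at 4.69 ± 0.767 and OsNRAMP1 at 1.71 ± 0.682 CPM per kb came last without overlap.

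**Figure D1:**
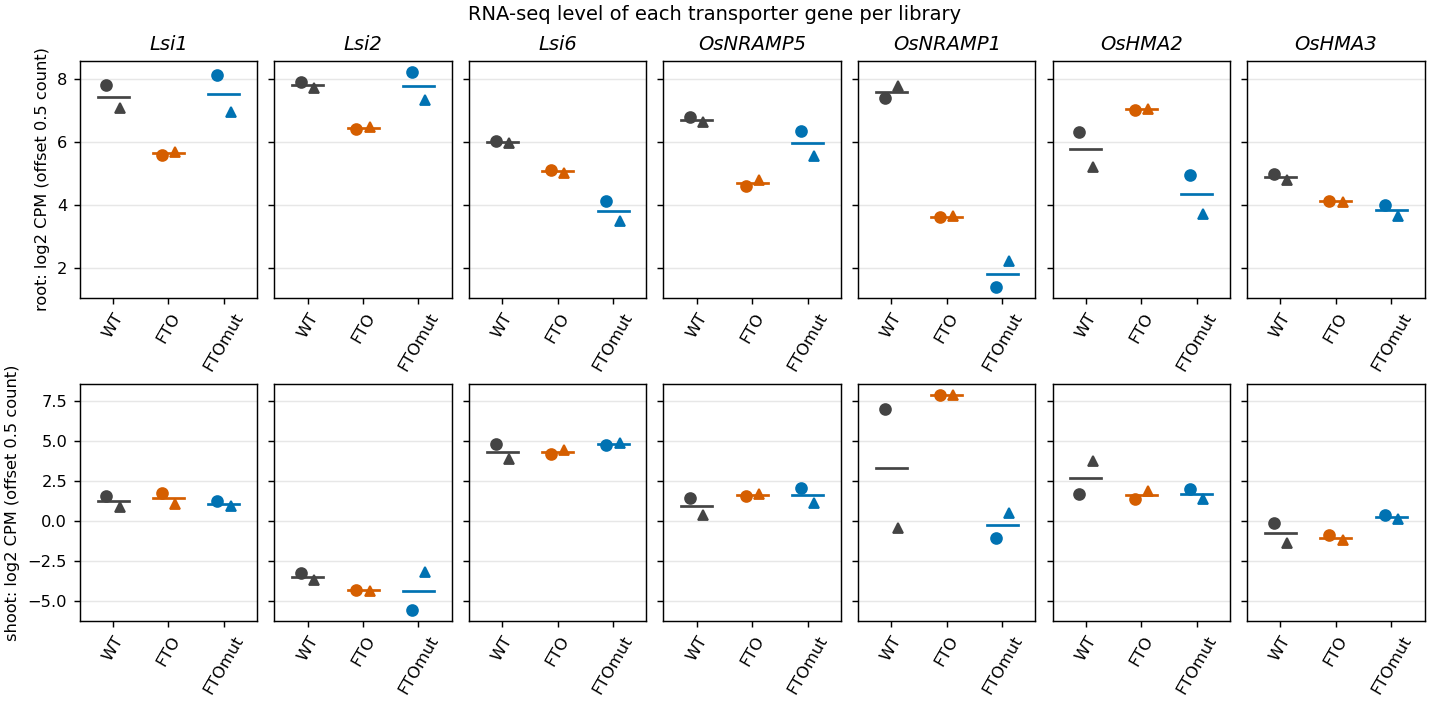
Level of each transporter gene in each RNA-seq library, in root (upper row) and shoot (lower row), as log2 CPM scaled within the organ with an offset of 0.5 counts. Circles are replicate 1, triangles replicate 2 and lines the mean of both. In root, FTO libraries lie below WT for every gene except OsHMA2, and in shoot OsNRAMP1 spans 1880 counts and 14 counts in the WT libraries.

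Roots were compared between genotypes first, with levels in CPM scaled within the organ and calls from edgeR's quasi-likelihood F test at an adjusted p under 0.05. In FTO root, 6 of the 7 genes were called lower than in WT, where 35.1% of all genes tested were called in either direction and 18.8% were called lower. Their median log2 fold change was -1.36, and that of all genes tested was 0.19. In FTOmut root, 4 of the 7 were called lower than in WT and none higher, against a background of 61.6% of genes called and 29.1% called lower, with a median of -1.06 for the 7 genes and 0.06 for all genes. Between FTO and FTOmut root, 3 were called higher in FTO and 3 lower, where 20.3% of genes were called, 14.8% higher and 5.47% lower. FTO and FTOmut were set against the same WT libraries, so the comparisons share them. In bulk organs, fewer cells of a type and less RNA per cell cannot be told apart. Scaled over all 12 libraries, the summed root markers were 212.3 and 191.8 CPM in FTO root. They were 489.5 and 551.7 in WT root and 511.5 and 399.7 in FTOmut root. Every root marker had a lower mean in FTO than in WT root, but in FTOmut root they went both ways. OsNAR2.1 had means of 188.45 in WT and 300.3 in FTOmut root, and OsAMT1;2 16.8 and 38.5. Lower in FTOmut were LOC_Os02g44310 (184.7 and 95.2), OsPT2 (40.0 and 18.2) and OsHKT2;1 (90.6 and 3.45). On the same scale, the summed green markers were 541.9 and 345.8 CPM in FTOmut root, against 48.6 to 76.8 in the other roots. The part of either sum in the differences below was not tested.

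Among the silicon transporters in root, Lsi1 and Lsi2 had their lowest levels in FTO, while Lsi6 was called lower than WT in both transgenic genotypes. Lsi1 stood at 222.3 and 134.1 CPM in WT, 47.9 and 51.2 in FTO, and 276.1 and 123.6 in FTOmut. Both FTO libraries lay below all others, and the WT and FTOmut libraries overlapped. Lsi1 was 3.60-fold lower in FTO than in WT (log2 fold change -1.85, SE 0.43, edgeR adjusted p = 0.0199) and 4.03-fold lower than in FTOmut (-2.01, SE 0.43, adjusted p = 0.0224). With libraries scaled to the ERCC spike-in RNA instead, Lsi1 kept its direction but not its call against WT (-1.37, adjusted p = 0.0618) or FTOmut (-1.50, adjusted p = 0.0520).

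Lsi2, the efflux transporter, stood at 236.0 and 209.5 CPM in WT root, 83.8 and 89.3 in FTO, and 297.9 and 160.6 in FTOmut. Again both FTO libraries lay below all others, and WT lay between the FTOmut libraries. It was 2.57-fold lower in FTO than in WT (log2 fold change -1.36, SE 0.25, edgeR adjusted p = 0.00106) and 2.65-fold lower than in FTOmut (-1.41, SE 0.25, adjusted p = 0.00156). The call against FTOmut was lost without FTO replicate 1 (-1.16, adjusted p = 0.102) or 2 (-1.27, adjusted p = 0.0604), and the value shrank to -0.57 without FTOmut replicate 1.

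Between FTOmut and WT root, neither silicon uptake gene was called: log2 fold changes were 0.17 (SE 0.41, edgeR adjusted p = 0.751) for Lsi1 and 0.04 (SE 0.24, adjusted p = 0.893) for Lsi2. These values rested on which FTOmut library was used. Without FTOmut replicate 1 both were called lower in FTOmut, Lsi1 at -0.90 (adjusted p = 0.00286) and Lsi2 at -0.84 (adjusted p = 0.000113). Without FTOmut replicate 2 both were called higher, Lsi1 at 0.66 (adjusted p = 0.00827) and Lsi2 at 0.45 (adjusted p = 0.0371). The value of Lsi1 in FTO against FTOmut likewise moved to -0.999 without FTOmut replicate 1 (edgeR adjusted p = 0.00200).

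Lsi6, the channel of xylem unloading, stood at 64.8 and 62.8 CPM in WT root, 34.4 and 32.4 in FTO, and 17.4 and 11.2 in FTOmut. The 3 genotypes did not overlap, and FTOmut was lowest. It was 4.47-fold lower in FTOmut than in WT (log2 fold change -2.16, SE 0.22, edgeR adjusted p = 2.58e-06), and -2.88 without FTOmut replicate 1. In FTO it was 1.91-fold lower than in WT (-0.93, SE 0.21, adjusted p = 0.00340) and 2.34-fold higher than in FTOmut (1.23, SE 0.22, adjusted p = 0.00103; 1.89 without FTOmut replicate 1). The call of FTO against WT was lost without FTO replicate 1 (-1.03, adjusted p = 0.127) or 2 (-0.95, adjusted p = 0.141), and under ERCC scaling (-0.43, adjusted p = 0.132).

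OsNRAMP1 differed most from WT of the 7 genes in root. Its levels were 165.6 and 216.6 CPM in WT, 12.0 and 12.4 in FTO, and 2.59 and 4.62 in FTOmut. The genotypes did not overlap, and the FTOmut libraries held only 44 and 98 counts. OsNRAMP1 was 15.6-fold lower in FTO than in WT (log2 fold change -3.96, SE 0.26, edgeR adjusted p = 6.08e-08) and 52.3-fold lower in FTOmut (-5.71, SE 0.28, adjusted p = 4.31e-09). It was 3.35-fold higher in FTO than in FTOmut (1.75, SE 0.26, adjusted p = 0.000306). These 3 calls held under every alternative listed in the closing section.

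OsNRAMP5, the main manganese uptake gene, stood at 109.4 and 98.2 CPM in WT root, 24.0 and 27.4 in FTO, and 81.6 and 47.0 in FTOmut. The lowest were the FTO libraries, and the genotypes did not overlap. It was 4.03-fold lower in FTO than in WT (log2 fold change -2.01, SE 0.24, edgeR adjusted p = 2.32e-05). It was 2.50-fold lower in FTO than in FTOmut (-1.32, SE 0.24, adjusted p = 0.00137). That second call was lost without FTO replicate 1 (-1.03, adjusted p = 0.175) or 2 (-1.24, adjusted p = 0.0710), and the value was -0.55 without FTOmut replicate 1. In FTOmut it was 1.62-fold lower than in WT (-0.69, SE 0.23, edgeR adjusted p = 0.0207). This last call was lost without FTOmut replicate 2 (-0.32, adjusted p = 0.181), WT replicate 1 (-0.84, adjusted p = 0.0930) or WT replicate 2 (-0.97, adjusted p = 0.0537) and with only those 2 groups fitted (adjusted p = 0.0607), and its value was -1.51 without FTOmut replicate 1.

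OsHMA2, the zinc and cadmium pump of transport to the shoot, was the 1 gene of the 7 with a higher level in FTO root. Its levels were 79.2 and 37.0 CPM in WT, 129.9 and 130.4 in FTO, and 31.0 and 13.02 in FTOmut. Both WT libraries lay below FTO and above FTOmut, and the WT libraries lay far from each other. Neither difference from WT was called: 1.16 (SE 0.55, edgeR adjusted p = 0.163) for FTO and -1.40 (SE 0.56, adjusted p = 0.0853) for FTOmut, on the log2 scale. OsHMA2 was 5.94-fold higher in FTO than in FTOmut (log2 fold change 2.57, SE 0.58, edgeR adjusted p = 0.0420). That call was lost with RLE size factors (adjusted p = 0.0561) and without FTOmut replicate 2 (1.95, adjusted p = 0.0913), and the value was 3.64 without FTOmut replicate 1.

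The 2 uncalled differences of OsHMA2 from WT were called in some alternative fits. FTO root was called higher without WT replicate 1 (1.56, edgeR adjusted p = 0.00444), with only the 2 groups fitted (1.19, adjusted p = 0.0446) and with no filter on low counts (0.91, adjusted p = 0.0172). FTOmut root was called lower without WT replicate 2 (-2.04, edgeR adjusted p = 7.08e-06), without FTOmut replicate 1 (-2.52, adjusted p = 0.0262), without FTO replicate 1 (-1.64, adjusted p = 3.70e-05) or 2 (-1.63, adjusted p = 3.15e-05), and with no filter (-1.63, adjusted p = 2.29e-06). DESeq2 called it as well (-1.71, adjusted p = 0.0449). OsHMA2 also had fractional counts, such as 1175.5 in WT root replicate 1, so that some of its reads were shared with another place.

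OsHMA3, the vacuolar cadmium pump, stood at 31.4 and 27.4 CPM in WT root, 17.3 and 16.9 in FTO, and 15.8 and 12.5 in FTOmut. Both transgenic genotypes lay below WT without overlap. It was 2.08-fold lower in FTOmut (log2 fold change -1.06, SE 0.20, edgeR adjusted p = 0.000596) and 1.72-fold lower in FTO (-0.78, SE 0.20, adjusted p = 0.00738) than in WT. The call of FTO was lost without FTO replicate 1 (-0.84, adjusted p = 0.237), FTO replicate 2 (-0.83, adjusted p = 0.209) or WT replicate 1 (-0.94, adjusted p = 0.0859), and under ERCC scaling (-0.28, adjusted p = 0.293). OsHMA3 was not called between FTO and FTOmut (0.28, SE 0.20, edgeR adjusted p = 0.346), but was called higher in FTO without FTOmut replicate 1 (0.77, adjusted p = 0.00605) and under ERCC scaling (0.79, adjusted p = 0.0146).

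**Figure D2:**
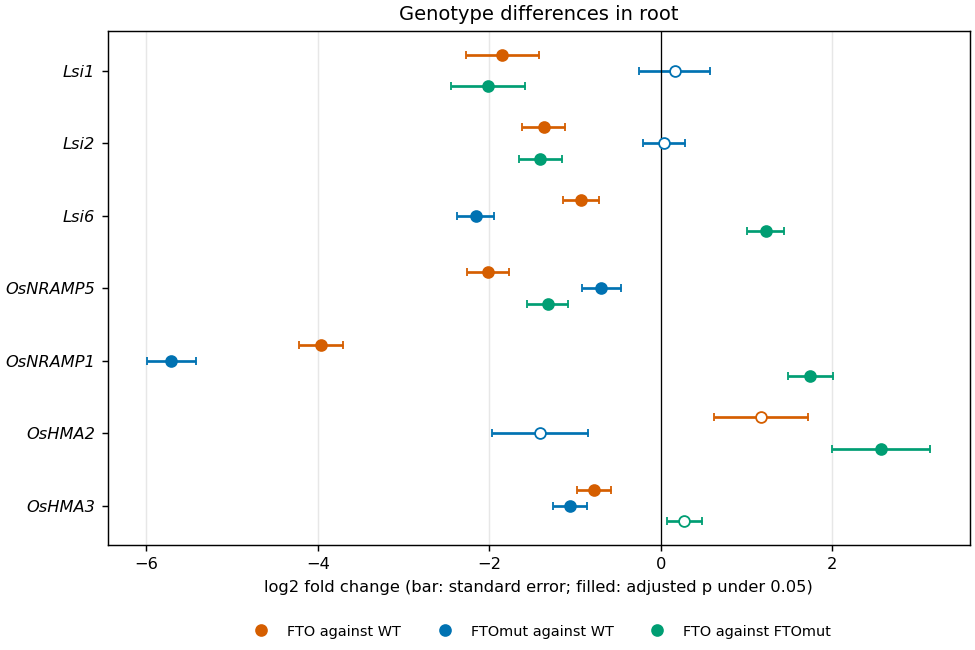
Log2 fold changes between genotypes in root for the 7 genes, with the first-named genotype over the second. Points are edgeR estimates, bars their standard error, and filled points passed an adjusted p under 0.05. OsNRAMP1 reaches -5.71 in FTOmut against WT, and Lsi1 and Lsi2 are near 0 in that comparison but below it in both comparisons of FTO.

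A list of 27 other silicon, manganese, zinc, copper and cadmium transporter genes gave the setting. In FTO root 8 of them were called higher and 5 lower than in WT, with a median log2 fold change of 0.07. In FTOmut root 6 were higher and 8 lower, with a median of -0.29. Between FTO and FTOmut root 7 were higher in FTO and 3 lower, with a median of 0.23. Genes of this list are named below only where the same check of chromosome and order passed, which it did for 16 of the 27. A gene with no other checked name on its chromosome passed without a comparison of order.

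Genes that did not pass the name check also differed in root. LOC_Os10g39980, listed as a silicon transporter gene, had means of 102.8 CPM in WT, 15.0 in FTO and 22.3 in FTOmut. LOC_Os03g45370 went the other way, with means of 8.64, 53.7 and 37.8 CPM. In FTO root the best-supported of the genes that passed was OsHMA4 (LOC_Os02g10290), a copper pump of the vacuolar membrane. It stood at 111.3 and 106.2 CPM in WT, 711.9 and 756.5 in FTO, and 90.3 and 89.1 in FTOmut, with FTO far above the others. OsHMA4 was 6.75-fold higher in FTO than in WT (log2 fold change 2.76, SE 0.18, edgeR adjusted p = 5.51e-08). OsZIP6, of the ZIP family of metal transporters, was 2.34-fold lower in FTO (-1.22, adjusted p = 0.000457), a call lost without FTO replicate 1 (-1.21, adjusted p = 0.0535). OsZIP10 was higher (1.66, edgeR adjusted p = 0.0201), and so was OsHMA9 (0.56, adjusted p = 0.0245). Both of those calls were lost without any 1 of the 4 FTO and WT libraries, with adjusted p between 0.125 and 0.222 for OsZIP10 and between 0.456 and 0.683 for OsHMA9. DESeq2 called neither (adjusted p = 0.105 and 0.529), and OsHMA9 was also not called with RLE size factors, with no filter or without the chromosome 9 loci described below.

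In FTOmut root OsNRAMP2, of the same family as OsNRAMP1, was 3.05-fold lower than in WT (log2 fold change -1.61, SE 0.18, edgeR adjusted p = 9.11e-06). OsZIP9 (LOC_Os05g39540), a root zinc uptake transporter, stood at 1.21 and 1.67 CPM in WT, 1.51 and 1.36 in FTO, and 7.004 and 6.70 in FTOmut. FTOmut alone was high, 4.70-fold above WT (2.23, SE 0.32, edgeR adjusted p = 7.40e-05). OsZIP6 was lower in FTOmut (-1.46, adjusted p = 7.21e-05; -2.07 without FTOmut replicate 1) and OsZIP10 was higher (2.603, adjusted p = 0.000647; 1.78 without that library). OsZIP8, next to OsHMA3 in the order of identifiers, differed from WT by -0.40 in FTO root (edgeR adjusted p = 0.123) and -0.47 in FTOmut root (adjusted p = 0.0529), neither called.

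In shoot, Lsi2 did not pass the filter on low counts, and none of the other 6 genes was called in any comparison of genotypes. The background there was 0% called: edgeR called 0 of 24463 genes in each of the 3 comparisons, where 835, 2179 and 4139 genes had an unadjusted p under 0.05 and DESeq2 called 31, 394 and 1181, in the order FTO against WT, FTOmut against WT and FTO against FTOmut. None of the 23 listed other transporter genes that were tested was called.

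OsNRAMP1 was the gene that varied most between shoot libraries. Its levels were 128.8 and 0.728 CPM in WT, 238.2 and 236.1 in FTO, and 0.462 and 1.41 in FTOmut, from 1880 and 14, 2406 and 2445, and 11 and 32 counts. WT replicate 1 and both FTO libraries were high, and WT replicate 2 and both FTOmut libraries were low. The summed green markers, scaled over all 12 libraries, also differed between the WT shoots. They were 9444 CPM in WT replicate 1 and 2231 in replicate 2, and 6495 to 11069 in the other shoots. Their part in the level of OsNRAMP1 was not tested.

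No genotype difference of OsNRAMP1 was called in shoot. The log2 fold change was 1.87 for FTO against WT (SE 1.67, edgeR adjusted p = 0.928), -6.11 for FTOmut against WT (SE 2.05, adjusted p = 0.451) and 7.98 for FTO against FTOmut (SE 2.22, adjusted p = 0.203). Both FTO libraries lay above those of WT and of FTOmut, while WT and FTOmut overlapped. Other fits called the difference of FTO from FTOmut: DESeq2 (7.98, adjusted p = 0.00242), only the 2 groups fitted (7.91, edgeR adjusted p = 0.000505) and ERCC scaling (8.59, adjusted p = 0.0498). That difference was 8.04 without WT replicate 1, 8.03 without WT replicate 2, 8.1997 without FTO replicate 1 and 8.21 without FTO replicate 2. For FTO against WT the value was 7.93 without WT replicate 1. For FTOmut against WT it was -7.41 without WT replicate 2 and -6.33 without either FTO library. Fits without a library keep 1 library of its group, so the spread of that group, wide in WT, does not enter them.

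OsHMA2 split the WT shoots the other way, with 3.22 CPM in replicate 1 and 13.3 in replicate 2. The FTO shoots were at 2.57 and 3.57 CPM and the FTOmut shoots at 3.95 and 2.59, so that WT replicate 2 alone was high. Its differences from WT were not called. Without WT replicate 1 they were -2.51 for FTO and -2.43 for FTOmut, with only the high WT library left.

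The remaining members differed less between shoots. Lsi6 was at 21.4 ± 9.80 CPM in WT, 20.4 ± 2.34 in FTO and 27.8 ± 1.59 in FTOmut (SD, n = 2). Lsi1 lay between 1.82 and 3.37 CPM, OsNRAMP5 between 1.30 and 4.20, and OsHMA3 between 0.364 and 1.30 over the 6 libraries. The levels of Lsi1 overlapped between all 3 genotypes, those of OsNRAMP5 in FTO lay above WT but between the FTOmut libraries, and OsHMA3 was higher in both FTOmut libraries than in the others, at 31 and 24 counts against 4 to 13. Lsi2 had 1 and 1 counts in WT, 0 and 0 in FTO, and 0 and 2 in FTOmut. A count of 0 in both FTO libraries allows a level of up to 0.247 CPM on the scale over all 12 libraries (3 counts over the group, counting error only).

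In shoot the highest level per kb in WT was that of OsNRAMP1, at 30.7 ± 42.9 CPM per kb (SD, n = 2), with libraries at 61.1 and 0.345. Lsi6 at 13.8 ± 6.35 lay inside that range, as did the libraries of OsHMA2, Lsi1 and OsNRAMP5. The rank of OsNRAMP1 among these genes is therefore not resolved. OsHMA2 followed at 4.70 ± 4.05, overlapping Lsi1 at 1.57 ± 0.526, and then came OsNRAMP5 at 0.663 ± 0.324, OsHMA3 at 0.208 ± 0.124 and Lsi2 at 0.0261 ± 0.00508 CPM per kb, which did not overlap each other. OsNRAMP1 led in FTO as well (112.4 ± 0.707), whereas Lsi6 led in FTOmut (18.03 ± 1.03) and OsNRAMP1 stood at 0.443 ± 0.316 CPM per kb there.

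Root and shoot were compared within each genotype over all 12 libraries scaled together. In WT, 4 of the 7 genes were called higher in root (Lsi1, Lsi2, OsNRAMP5 and OsHMA3) and none lower, where 19.9% of genes were called, 10.5% higher in root and 9.39% lower. In FTO, the same 4 and OsHMA2 were called higher in root and OsNRAMP1 lower, where 22.2% were called, 9.55% higher and 12.7% lower. In FTOmut, the 4 genes were called higher and Lsi6 lower, where 15.1% were called, 5.74% higher and 9.34% lower. Of the 27 other transporter genes, 9 were called higher in root and 5 lower in WT, 11 and 6 in FTO, and 7 and 3 in FTOmut. OsZIP8 was lower in root in each genotype (log2 fold change -1.08 in WT, -1.52 in FTO and -1.58 in FTOmut, edgeR adjusted p = 0.0239, 0.00317 and 0.00323), the opposite direction to OsHMA3 beside it.

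Lsi2 was the most root-restricted of the 7 genes by counts. It had 7135 counts in WT root against 2 in WT shoot, a ratio of 1541 after scaling (exact interval 426.3 to 12720, counting error only), and 8466 against 2 in FTOmut, a ratio of 2150 (595.0 to 17760). In FTO it had 2243 counts against 0, with the lower end of the exact interval at 162.5. With 3 counts over the group taken for the shoot, the ratio in FTO was 200. Lsi1 was 31.1-fold higher in root in WT (log2 fold change 4.96, SE 0.49, edgeR adjusted p = 1.82e-05) and 38.8-fold in FTOmut (5.28, SE 0.50, adjusted p = 3.08e-05; 4.51 without FTOmut root replicate 1 and 6.12 without FTOmut shoot replicate 1). In FTO it was 6.21-fold higher (2.63, SE 0.46, edgeR adjusted p = 0.00112), a call lost without FTO shoot replicate 2 (2.47, adjusted p = 0.0568) and under ERCC scaling (1.00, adjusted p = 0.0796).

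Lsi6, unlike Lsi1 and Lsi2, was not called higher in root in any genotype. On the joint scale it stood at 41.5 and 40.4 CPM in WT root and 43.0 and 23.1 in WT shoot, and at 11.3 and 7.34 in FTOmut root and 44.3 and 42.8 in FTOmut shoot. The organs overlapped in WT and did not in FTOmut, where Lsi6 was 4.68-fold lower in root (log2 fold change -2.23, SE 0.34, edgeR adjusted p = 0.000593). It was not called in WT (0.31, SE 0.32, adjusted p = 0.576) or in FTO (-0.85, SE 0.33, adjusted p = 0.0876). Under ERCC scaling, where the median over all genes was -1.80 in WT and -0.98 in FTO, it was called lower in root in both (-1.15, adjusted p = 0.0130, and -2.52, adjusted p = 3.57e-05). With only FTO libraries fitted it was called there too (-0.73, edgeR adjusted p = 9.79e-09).

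OsNRAMP5 was 21.9-fold higher in root in WT (log2 fold change 4.45, SE 0.46, edgeR adjusted p = 2.43e-05; 5.21 without WT shoot replicate 1). In FTOmut it was 8.197-fold higher (3.04, SE 0.43, adjusted p = 0.000361; 4.24 without FTOmut shoot replicate 1, 2.40 without replicate 2). In FTO root it stood at 13.6 and 15.7 CPM on the joint scale and in FTO shoot at 4.88 and 5.32, a 2.87-fold difference (1.52, SE 0.43, edgeR adjusted p = 0.0212). That call was lost without FTO root replicate 1 (adjusted p = 0.0603) or 2 (0.116), without FTO shoot replicate 1 (adjusted p = 0.316) or 2 (0.233), and under ERCC scaling, where the value was -0.14 (adjusted p = 0.816). OsHMA3 was 19.8-fold higher in root in WT (4.31, SE 0.41, edgeR adjusted p = 1.24e-05; 5.22 without WT shoot replicate 1) and 13.04-fold in FTO (3.71, SE 0.45, adjusted p = 7.18e-05). In FTOmut OsHMA3 was 4.95-fold higher (2.31, SE 0.36, adjusted p = 0.000705; 3.07 without FTOmut shoot replicate 1), a call lost under ERCC scaling (0.57, adjusted p = 0.240).

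For OsNRAMP1 the organs lay farthest apart in FTO, where it was 57.2-fold lower in root than in shoot (log2 fold change -5.84, SE 1.43, edgeR adjusted p = 0.00986), with 6.82 and 7.13 CPM in root and 404.6 and 394.3 in shoot on the joint scale. The libraries lay far apart, yet the call was lost without each FTO library, each WT root library, each FTOmut shoot library and FTOmut root replicate 1, with values of -5.86 to -5.69 and adjusted p between 0.0933 and 0.332. In WT it was not called (0.32, SE 1.16, edgeR adjusted p = 0.884), where the shoot libraries lay above and below the root level. Without WT shoot replicate 1, with only the low WT shoot library left, the value in WT was 6.93. In FTOmut, where both organs were low, it was not called (0.72, SE 1.32, edgeR adjusted p = 1.00).

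OsHMA2 was 14.3-fold higher in FTO root than shoot (log2 fold change 3.84, SE 0.68, edgeR adjusted p = 0.00117). It was not called in WT (1.51, SE 0.60, adjusted p = 0.107) or FTOmut (1.46, SE 0.61, adjusted p = 0.158). Without WT shoot replicate 2 it was called higher in WT root (2.93, edgeR adjusted p = 0.00135), as it was without FTOmut shoot replicate 1 (1.67, adjusted p = 0.000938) or 2 (1.66, adjusted p = 0.0414) and with no filter (1.72, adjusted p = 0.0327). In FTOmut it was called without FTOmut shoot replicate 1 (2.48, edgeR adjusted p = 0.000507), WT shoot replicate 1 (1.55, adjusted p = 0.0408) or 2 (1.55, adjusted p = 0.0370), and by DESeq2 (1.73, adjusted p = 0.0201).

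**Figure D3:**
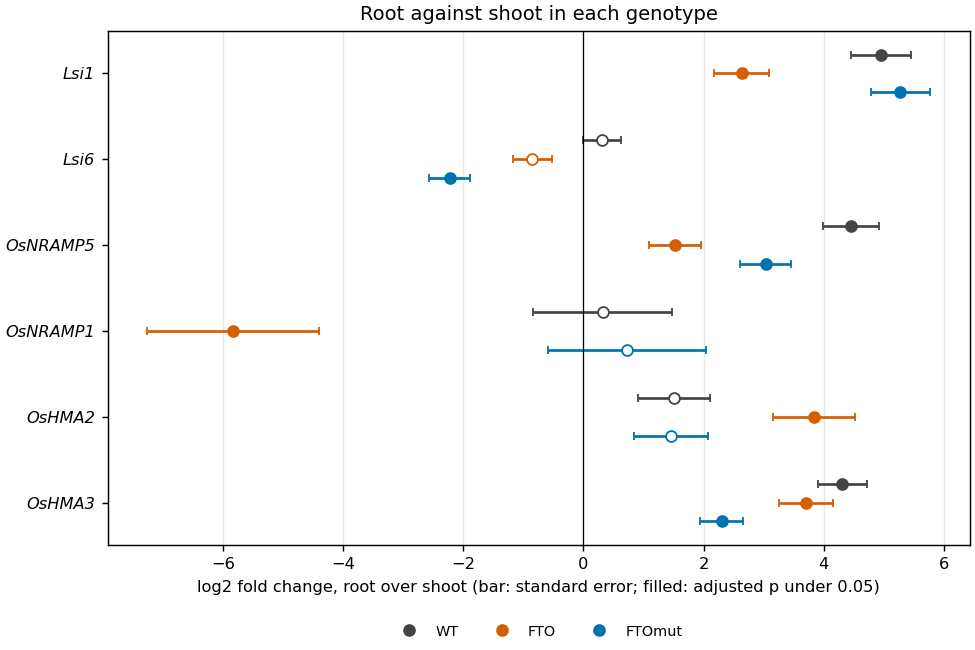
Log2 fold changes of root over shoot within each genotype for 6 of the 7 genes. Lsi2 was fitted and called too, but is not drawn, since its shoot counts were only 0 to 2. Points are edgeR estimates over all 12 libraries, bars their standard error, and filled points passed an adjusted p under 0.05. OsNRAMP1 is at -5.84 in FTO, and Lsi6 is at 0.31 in WT and -2.23 in FTOmut.

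Whether a genotype difference itself differed between root and shoot was tested as a contrast over the 12 libraries. For FTO against WT, 1 of the 7 genes was called, where 3.31% of genes were and 1.44% were called lower. OsNRAMP5 was lower in FTO than in WT in root but not in shoot, where its mean was 3.03 CPM in FTO and 1.99 in WT. The log2 fold changes differed by -2.93 (SE 0.61, edgeR adjusted p = 0.0234). The call was lost without WT shoot replicate 2 (-2.39, adjusted p = 0.231), FTO shoot replicate 1 (adjusted p = 0.182) or 2 (0.233), FTO root replicate 1 (0.105) or 2 (0.0876), and WT root replicate 1 (0.0743) or 2 (0.0702), and OsNRAMP5 was at -3.55 without WT shoot replicate 1. Leaving out 2 loci of chromosome 9 that held 64.8% and 63.6% of the gene counts of the FTO shoots also ended the call (-2.90, edgeR adjusted p = 0.0576). Those loci held 21.0% and 34.4% in the WT shoots, 23.2% and 22.0% in FTO root, and 3.19% and 2.31% in WT root. The values of Lsi1 (-2.32, SE 0.63, adjusted p = 0.0675), OsNRAMP1 (-6.16, SE 1.77, adjusted p = 0.0835) and OsHMA2 (2.33, SE 0.87, adjusted p = 0.165) were not called.

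These 3 values were called in other fits. Lsi1 was called without WT shoot replicate 1 (-2.73, edgeR adjusted p = 0.0452), without FTOmut root replicate 1 (-2.35, adjusted p = 0.0451) or 2 (-2.32, adjusted p = 0.0482), without FTOmut shoot replicate 1 (-2.27, adjusted p = 0.00906) or 2 (-2.27, adjusted p = 0.0126), under ERCC scaling (-2.50, adjusted p = 0.0334) and by DESeq2 (-2.02, adjusted p = 0.0298). OsNRAMP1 was called with no filter (-6.05, edgeR adjusted p = 0.0363). It was at -12.63 without WT shoot replicate 1 and at -5.04 without WT shoot replicate 2, each time with 1 WT shoot library left. Its value thus depended on which WT shoot library was used, while its direction did not. OsHMA2 was called without WT shoot replicate 1 (2.95, edgeR adjusted p = 0.0111), without FTOmut shoot replicate 1 (2.30, adjusted p = 0.00534) and by DESeq2 (adjusted p = 0.0325).

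For FTOmut against WT, the difference between organs was called for Lsi6, where 0.909% of genes were called and 0.553% were called lower. Lsi6 was lower in FTOmut than in WT in root but not in shoot, where its mean was 27.8 CPM in FTOmut and 21.4 in WT. The log2 fold changes differed by -2.54 (SE 0.46, edgeR adjusted p = 0.0285). The call was lost without WT root replicate 1 (adjusted p = 0.103) or 2 (0.118), WT shoot replicate 2 (-2.06, adjusted p = 0.279), FTO root replicate 2 (0.0533), FTO shoot replicate 1 (0.221) or 2 (0.222) and FTOmut root replicate 2 (0.122). Lsi6 was at -3.16 without WT shoot replicate 1 (edgeR adjusted p = 0.0219). The call was also lost without the chromosome 9 loci (-2.49, adjusted p = 0.0871), with no filter (adjusted p = 0.113) and with only the groups compared (-2.35, adjusted p = 0.391). OsNRAMP1 was at 0.40 (SE 1.74, edgeR adjusted p = 0.938), but at -6.07 without WT shoot replicate 1, with only the low WT shoot library left. Without FTOmut shoot replicate 2, OsNRAMP5 (-2.14, edgeR adjusted p = 0.0197; -1.42 with all libraries) and OsHMA3 (-2.54, adjusted p = 0.0125; -2.004 with all) were called as well.

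Across the 12 libraries, the level of Lsi1 followed that of OsNRAMP5 with a Pearson correlation of log2 CPM of 0.967, the nearest match for each among the other members and the listed transporters. Of 20280 genes, 3 were closer to Lsi1 and 7 closer to OsNRAMP5. Lsi2 was nearest to OsZIP1, a zinc transporter gene of the ZIP family (r = 0.971), with 38 closer genes. Lsi6 was nearest to OsNRAMP2 (0.746, 1074 closer genes) and OsNRAMP1 to OsZIP5 (0.733, 1170 closer genes), both weaker matches. OsHMA2 was nearest to LOC_Os01g03914 (0.910) and OsHMA3 to LOC_Os02g03900 (0.958), with 34 and 79 closer genes. These are descriptions over 12 libraries of 2 organs, with no test.

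The m6A lists held a peak in OsNRAMP1, OsNRAMP5 or OsHMA2, and none of the 12 lists held one in Lsi1, Lsi2, Lsi6 or OsHMA3. Peaks of the same strand that overlapped between the replicate lists of a group, by 1 bp or more, were taken as replicated. OsNRAMP1 had a replicated peak in FTO root and in FTOmut root, and no other member had one in any group. Of the genes tested in root, 33.1% had a replicated peak in WT, 33.7% in FTO and 34.1% in FTOmut, and of those tested in shoot 42.1%, 45.2% and 43.9%. Of the 27 other transporter genes, 12, 13 and 17 had one in root and 12, 13 and 13 in shoot, in the same order of genotypes. A listed peak needs enough reads, so no peak in a list does not show that the transcript was unmethylated. The RNA levels above come from other libraries than the peaks.

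OsNRAMP1 carried a peak in 8 of the 12 lists, 5 of root and 3 of shoot. All 8 shared a stretch of 91 bp on the plus strand, at chr7:8970742-8970832 in the coordinates of the lists, whose genome build is not given in the sources used here. The fold of immunoprecipitate over input, as the authors deposited it, was 4.80 in WT root replicate 2, 8.67 and 15.0 in FTO root, and 17.0 and 51.0 in FTOmut root. WT root replicate 1 had no peak. In root the listed folds were thus higher in the transgenic genotypes, but with 1 listed WT value no test was possible. By fold they lay at percentile 1.86 of their own list in WT, 11.1 and 28.8 in FTO, and 31.3 and 70.1 in FTOmut. By FDR, counted from the weakest, the same peaks lay at percentile 50.6 in WT, 51.3 and 43.8 in FTO, and 36.6 and 60.6 in FTOmut. The WT peak was thus lowest by fold but lay among the transgenic ones by FDR. The OsNRAMP1 transcript was 15.6-fold lower in FTO and 52.3-fold lower in FTOmut root than in WT. The part of that level in the folds was not tested.

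In shoot the fold over that stretch was 4.79 in WT replicate 2 and 13 in FTOmut replicate 1, and there was no peak in WT replicate 1, FTO replicate 2 or FTOmut replicate 2. FTO shoot replicate 1 was unlike all other lists. It held 5 peaks in OsNRAMP1, from chr7:8966063 to chr7:8970882, with deposited folds of 14.0 to 152.0 and log10 FDR values of -2.6 to -2.83. The blocks of these peaks came to 1854 bp against a deposited gene length of 2110 bp, or 87.9%, a coverage of at least 80% that 15 genes of that list had (0.119% of its genes). Each of the 5 had an FDR within the weakest 1.07% of the list.

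**Figure D4:**
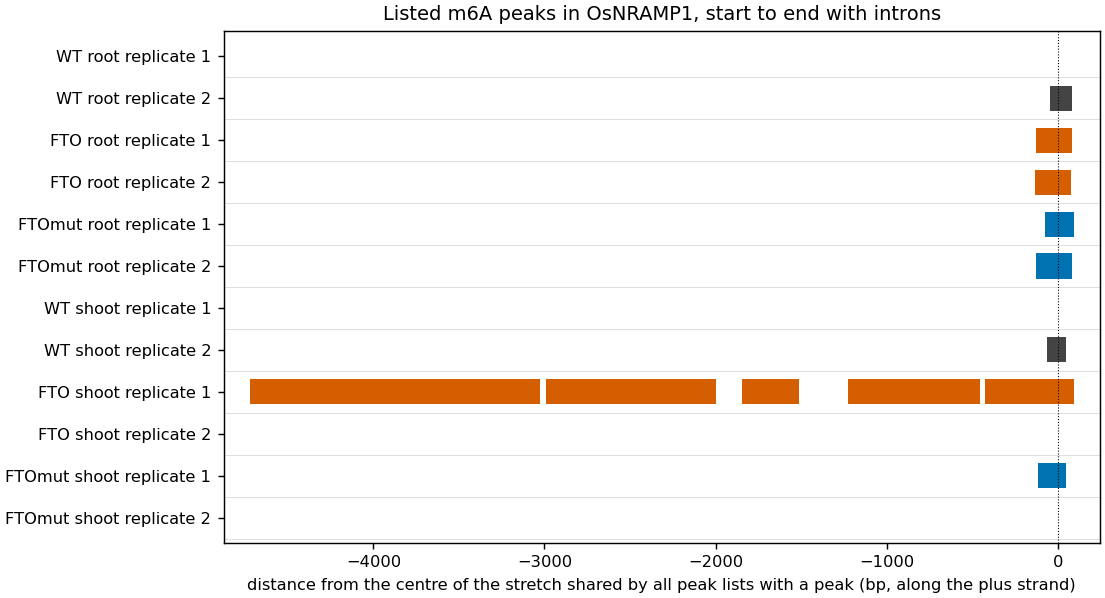
Listed m6A peaks in OsNRAMP1 in each of the 12 peak lists, drawn from start to end with introns included, as distance in bp from the centre of the stretch that the peaks share. Colours mark WT (grey), FTO (orange) and FTOmut (blue). Peaks of 7 lists are short and lie over the shared stretch, while FTO shoot replicate 1 has 5 peaks along the gene, and 4 lists have none.

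OsNRAMP5 had a peak on the minus strand in 1 list of FTO root (chr7:8871526-8871756, replicate 1, deposited fold 6.00) and in 1 of FTOmut root (chr7:8871616-8871746, replicate 1, deposited fold 25.5). These peaks overlapped each other, and neither was found in the second replicate of its group. OsHMA2 had a peak on the minus strand over the same 121 bp, in 2 blocks of chr6:29480439-29480736, in WT root replicate 1 (deposited fold 3.78) and FTO root replicate 2 (8.33). OsZIP8 had peaks in FTO root replicate 2, FTOmut root replicate 2 and WT shoot replicate 2, with deposited folds of 4.59, 5.00 and 4.10, while OsHMA3 beside it had none.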

How the data were processed

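Per the submitters' processing notes, the tools included cutadapt 1.15, HISAT2 2.1.0 and featureCounts (Subread 1.6.4). The deposited gene tables hold expected counts (estimated counts), with some fractional values and no normalization, plus 92 ERCC spike-in rows, and the deposited gene length in bp is of another kind and served only for levels per kb. For RNA-seq the labelled molecule, polyA RNA, conflicts with the ribosomal depletion in the protocol. Peak lists are named for MeTPeak per the labels, with settings and build not given in the sources used here. Each deposited peak carries a fold, the ratio of the immunoprecipitate to its input, and an FDR in log10 units.

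Counts were rounded to whole numbers. edgeR 4.0.16 under R 4.3.3 removed genes with low counts (filterByExpr), scaled by TMM and applied the robust two-sided quasi-likelihood F test, with Benjamini-Hochberg adjustment over all genes tested. The 6 libraries of an organ were fitted together for genotypes, and all 12 for root against shoot and for differences between organs. SE is the log2 fold change over the square root of F. Alternatives were RLE size factors, ERCC scaling, DESeq2 1.42.0, no filter, only the groups compared and a replicate block. Others left out 2 chromosome 9 loci or each library. Leaving out a library leaves 1 in its group, so the spread of that group does not enter the p-value. The procedure was tested on simulated counts of the root libraries, with the same spread for every gene. That test does not cover pairs of libraries that lie far apart. No pair of libraries held identical values. The named genes were all 7 members, and up to 4 called genes with the smallest p among the checked names of the 27 listed transporters per comparison. The members and lists were chosen with earlier results of these data known.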

Additional observations from a re-analysis of the deposited data

Results flagged for a closer look

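For 2 genes the difference between genotypes was itself called different between root and shoot. OsNRAMP5 was lower in FTO than in WT in root (log2 fold change -2.01) but not in shoot (0.62), and the difference between organs was -2.93 (edgeR adjusted p = 0.0234). Lsi6 was lower in FTOmut than in WT in root (-2.16) but not in shoot (0.38), and the difference was -2.54 (edgeR adjusted p = 0.0285). Both rest on WT shoot libraries that stood apart from each other, and both calls were lost without WT shoot replicate 2, at -2.39 (adjusted p = 0.231) for OsNRAMP5 and -2.06 (adjusted p = 0.279) for Lsi6. The part of those libraries in the differences was not tested.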

How the results depend on the processing

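Of 1177 values of the 7 genes recomputed under alternatives, 1009 kept direction and call. A call was lost in 53 and gained in 55, and 55 changed sign without a call. The other 5 reversed in sign, with a call in the main or in the alternative fit. Depth limits the genes with few counts, such as Lsi2 (0 to 2 counts) and OsHMA3 (4 to 31 counts) in shoot. The cause of a lost or gained call was not tested. The 5 reversals were Lsi1 (-0.90) and Lsi2 (-0.84) in FTOmut against WT root without FTOmut replicate 1, Lsi6 in WT root against shoot (-1.15) and OsNRAMP5 in FTO root against shoot (-0.14) under ERCC scaling, and OsNRAMP1 in the difference between organs of FTOmut against WT without WT shoot replicate 1 (-6.07). Leaving out 1 library at a time, these ran from -0.90 to 0.66, from -0.84 to 0.45, from -0.05 to 1.04, from 1.43 to 1.75 and from -6.07 to 1.52.

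Of the 7 genes, the number called in FTO against WT root fell from 6 to 3 under ERCC scaling. In FTO against FTOmut shoot it rose from 0 to 1 under ERCC scaling, under DESeq2 and with only the groups compared. In the difference between organs of FTO against WT it went from 1 to 2 under ERCC scaling, to 2 with no filter, to 3 under DESeq2 and to 0 without the 2 chromosome 9 loci. In that of FTOmut against WT it went from 1 to 0 without those loci, with no filter and with only the groups compared. Leaving out 1 library gave 4 to 6, 3 to 7 and 4 to 7 genes in root (FTO against WT, FTOmut against WT, FTO against FTOmut), 0 to 2, 0 to 1 and 0 to 1 in shoot, 4 to 5, 3 to 6 and 5 to 6 for root against shoot in WT, FTO and FTOmut, and 0 to 4 and 0 to 3 for the differences between organs. For m6A, 2 combinations of gene and group had a replicated peak. With 1 replicate left out no peak can be replicated, so any listed peak was counted there. That gave 5 combinations without replicate 1 and 7 without replicate 2. A minimum peak fold of 2 changed nothing.

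Over all genes, leaving out 1 library called 4825 to 18800 calls in FTO against WT root (11399 with all), 12371 to 33821 in FTOmut against WT root (19996), 2954 to 17741 in FTO against FTOmut root (6581), and 0 to 3946, 0 to 4305 and 0 to 4754 in the shoot comparisons (0 each). It gave 4182 to 9850, 4339 to 11177 and 3721 to 9587 for root against shoot (7649, 8570 and 5808) and 239 to 5095 and 71 to 7286 for the differences between organs (1274 and 350). In shoot, no filter gave 98, 241 and 1024 calls, and FTO against FTOmut had 1206 under ERCC scaling and 3786 with only those groups. With only the groups compared, root against shoot gave 4929, 18018 and 3461, and the differences between organs 2944 and 15. These were 764 and 182 without the chromosome 9 loci and 2691 and 1706 under DESeq2, and that of FTOmut was 560 with RLE size factors and 603 with no filter. DESeq2 called 4195 genes in FTO against FTOmut root.

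Under ERCC scaling the all-gene median went from 0.19 to 0.69 in FTO against WT root, with 9638 higher and 2419 lower in place of 5296 and 6103, and from -0.11 to 0.40 in FTO against FTOmut root, with 10616 and 681 in place of 4804 and 1777. For root against shoot it gave medians of -1.80, -0.98 and -1.95, with 1124 higher and 13594 lower in WT (4030 and 3619 by TMM), 1065 and 15121 in FTO (3678 and 4892), and 590 and 16832 in FTOmut (2211 and 3597). The differences between organs split into 555 higher and 1123 lower for FTO (719 and 555 by TMM) and 108 and 388 for FTOmut (137 and 213), and with RLE size factors into 1097 and 371, and 395 and 165. RLE size factors split root against shoot in FTOmut into 2993 and 2814. DESeq2 split FTO against WT root into 2728 higher and 6708 lower, and FTOmut against WT root into 7425 and 10353 (10561 and 9435 by edgeR).

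Replicate numbers were not taken as pairs, since the labels say nothing of a shared batch and there are 2 numbers. The replicate difference correlated across genes at 0.527 between WT and FTOmut root and -0.178 between WT and FTOmut shoot, and between -0.0351 and 0.0175 in the other pairs. A replicate block called 7, 5 and 6 of the 7 genes in root, 0 in each shoot comparison, 4, 6 and 5 for root against shoot, and 2 and 1 for the differences between organs. With the block OsHMA2 was called in root in FTO (1.30, edgeR adjusted p = 0.000144) and FTOmut (-1.42, adjusted p = 3.95e-05) against WT, and Lsi1 in the difference between organs for FTO (-2.22, adjusted p = 0.0326). Crossing the numbers in FTOmut against WT shoot, a choice made after seeing the data, called 0 genes.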
